A study of Mus musculus with 12 samples.

Results

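Histone genes were taken as the mouse protein-coding genes of the RefSeq table of GRCm38.p6 whose symbols begin H1f, H2a, H2b, H3c, H3f, H3-, H4c or H4f. This gave 102 of 21900 protein-coding genes: 10 of the linker histone H1, 44 of H2A, 19 of H2B, 16 of H3 and 13 of H4. Clustered genes, 74 in all, lay in a group of at least 3 members spaced at most 100 kb apart, and the other 28 were called stand-alone. A histone gene counted as called in a library when the summit of an m1A peak lay within its span, from its annotated start to its end.

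The study asked where in RNA the DNA dioxygenase TET1 affects N1-methyladenosine (m1A), a methylated adenosine whose added methyl group sits on the base-pairing face. RNA of the caudate putamen, the dorsal striatum, came from adult male mice, all Tet1 fl/fl. Controls had received AAV-EGFP, and knockout (KO, Tet1 delta/delta) mice AAV-Cre-EGFP by stereotaxic injection, with tissue collected 2 weeks later. Each genotype had 3 antibody pull-down libraries and 3 inputs, 12 samples in all. Both groups therefore carried the floxed alleles and received a virus. The promoter that drives Cre is not given in the labels, and cells that the virus did not reach keep Tet1. No peak lay in Tet1 in any list, so the lists carry no check of the deletion. The labels do not say that the numbered libraries came from separate mice, so any p-value here reflects spread among libraries that may be no more than technical.

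Histones package DNA: H2A, H2B, H3 and H4 form the octamer of the nucleosome, and H1 binds the linker DNA at its entry and exit. Most histone genes are clustered and replication-dependent. They are short and intronless, are transcribed in S phase with the factor NPAT, and give mRNAs that end in a stem-loop bound by SLBP in place of a poly(A) tail. Replacement variants come from stand-alone genes, are made throughout the cell cycle from mRNAs with poly(A) tails, and supply chromatin in cells that no longer divide. The 28 stand-alone genes here also include 12 on X and Y and germline genes such as H1f7 and H1f8, so they are not a set of replacement variants alone. Neurons of the adult striatum are post-mitotic. Libraries made with rRNA depletion and random primers, as here, can hold both kinds of mRNA.

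The sequences before the start of 4 called histone genes are shown first, as examples of clustered and stand-alone promoters. Each is the 150 bases before the annotated start in RefSeq GRCm38.p6, read 5′ to 3′ along the gene. Capitals mark a CCAAT box on either strand, a TATA box with the letters TATAAA, or the octamer. The octamer, ATTTGCAT, is bound by the factor Oct-1 in H2B promoters. H3c13 (chr3:96268504-96268653, plus strand) was the histone gene called in all 6 libraries. H2bc12 (chr13:22035671-22035820, plus strand) was an H2B gene called in KO libraries alone. H2aj (chr6:136808098-136808247, plus strand) and H1f0 (chr15:79028062-79028211, plus strand) were the stand-alone genes that were called.
H3c13: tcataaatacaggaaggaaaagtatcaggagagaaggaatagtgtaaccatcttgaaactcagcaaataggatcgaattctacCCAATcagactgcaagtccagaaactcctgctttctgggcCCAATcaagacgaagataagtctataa
H2bc12: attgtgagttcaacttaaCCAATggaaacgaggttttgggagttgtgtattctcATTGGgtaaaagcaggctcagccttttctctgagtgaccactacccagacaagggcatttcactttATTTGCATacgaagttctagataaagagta
H2aj: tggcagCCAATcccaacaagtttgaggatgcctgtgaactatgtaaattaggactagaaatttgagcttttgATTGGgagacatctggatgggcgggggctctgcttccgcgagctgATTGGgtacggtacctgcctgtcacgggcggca
H1f0: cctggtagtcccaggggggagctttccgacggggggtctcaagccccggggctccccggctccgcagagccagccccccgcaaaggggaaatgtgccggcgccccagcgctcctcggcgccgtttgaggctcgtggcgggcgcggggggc
The H1f0 stretch held none of the 3 motifs. H3c13, H2bc12 and H2aj each held CCAAT boxes, and the octamer stood in H2bc12.

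RefSeq windows of 300 bases (250 before to 50 after the start) were matched for 96 of the 102 histone genes and for 24 of the 25 called ones. The called gene without a window was H2bc4. The 96 genes had 97 windows, and the counts that follow are of windows, not of genes. Over the 60 windows of clustered genes on chromosomes 3, 11 and 13, TATAAA was found on either strand in 56.7%, CCAAT in 86.7% and ATTTGCAT in 20%. Over 21263 windows of protein-coding genes the shares were 12.6%, 38.2% and 1.66%. Stand-alone histone genes lay between these for TATAAA (5 of 27, 18.5%), CCAAT (14 of 27, 51.9%) and ATTTGCAT (3 of 27, 11.1%). CCAAT stood in 15 of 15 windows of clustered H2B genes and the octamer in 6 of 15. Among the clustered genes, TATAAA was in 13 of 23 called (56.5%) and 21 of 37 uncalled (56.8%) windows, CCAAT in 91.3% and 83.8%, and ATTTGCAT in 6 of 23 (26.1%) and 6 of 37 (16.2%). A match is a description of the letters only.

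A pair of near copies is shown next. Their shared run lies before the annotated starts, so it does not show that reads from their RNA are alike. H3c14 (chr3:96246535-96246684, plus strand) and H3c15 (chr3:96239128-96239277, minus strand) are inverted copies on chromosome 3, and their windows share an exact run of 231 bases. Capitals mark the part of that run within the 150 bases shown, 146 bases of H3c14 and 131 of H3c15; the rest lies further upstream.
H3c14: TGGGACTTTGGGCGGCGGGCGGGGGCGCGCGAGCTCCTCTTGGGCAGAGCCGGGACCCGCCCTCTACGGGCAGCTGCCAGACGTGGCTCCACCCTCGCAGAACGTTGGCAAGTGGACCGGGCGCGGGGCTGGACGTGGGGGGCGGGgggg
H3c15: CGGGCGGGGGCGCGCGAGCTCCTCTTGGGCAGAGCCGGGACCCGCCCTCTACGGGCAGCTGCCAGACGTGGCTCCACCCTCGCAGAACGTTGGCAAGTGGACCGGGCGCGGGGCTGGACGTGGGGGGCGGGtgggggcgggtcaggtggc
H2ac18 and H2ac19, which lie between them, shared 219 bases of their windows. The next longest run, between H4c11 and H4c12, was 72 bases. Transcript sequences of these copies were not compared. How the aligner's reads with several equal positions were treated is also not given in the sources used here. Calls that name 1 copy within H3c14 and H3c15, or within H2ac18 and H2ac19, are therefore uncertain. Genes of a histone family also have very similar coding sequences, and the same caution holds for them in weaker form.

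Peaks were called in 25 of the 102 histone genes (24.5%) in at least 1 of the 6 libraries, against 26.3% of all protein-coding genes. Histone genes are short, and long genes have more room for a peak. Among genes with a span under 5 kb, 23 of 96 histone genes (24%) were called, against 9.11% of 5047 protein-coding genes of that size. The share was 23 of 74 (31.1%) for clustered genes and 2 of 28 (7.14%) for stand-alone genes.

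Histone genes were called more often in the KO libraries. Peaks stood in 1, 5 and 3 histone genes in control 1, 2 and 3, and in 17, 8 and 15 in KO 1, 2 and 3. Every KO library was above every control library, with means of 3 ± 2 and 13.3 ± 4.73 (SD, n = 3 per genotype), a ratio of 4.44. This separation was lost with peaks of fold 4 or more, where KO 2 had 3 histone genes and control 2 had 4, and with lists cut to equal length, where both had 4. Over all protein-coding genes the means were 2184 ± 139 in control and 2587 ± 614 in KO (SD, n = 3), a ratio of 1.18. Over genes under 5 kb they were 165 ± 59.5 and 218 ± 25.5, a ratio of 1.32.

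As a share of the protein-coding genes called in the same library, histone genes made up 0.0461%, 0.2145% and 0.146% in the controls and 0.697%, 0.245% and 0.728% in the KO libraries. The groups did not overlap, but KO 2 lay just above control 2. Called protein-coding genes numbered 2167, 2331 and 2054 in controls 1 to 3 and 2438, 3262 and 2061 in KO 1 to 3, so there the groups overlapped. What sets the histone shares was not tested.

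**Figure D1:**
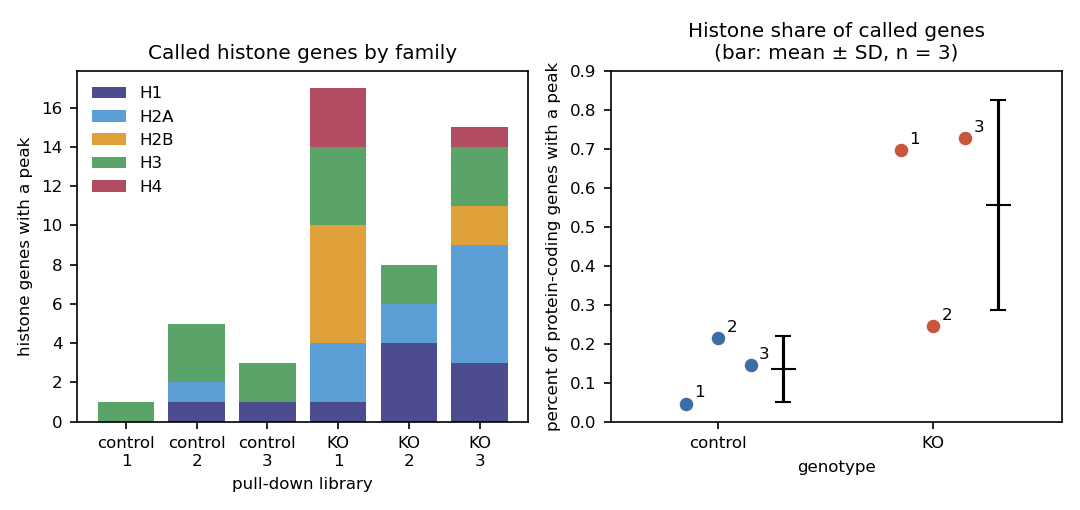
Left, number of histone genes with a peak in each pull-down library, stacked by histone family; right, histone genes as a percent of all protein-coding genes with a peak, 1 point per library (numbered), with mean ± SD (n = 3). KO 1 and KO 3 reach 17 and 15 genes, and KO 2, with 8, lies nearest to the controls, which hold 1 to 5.

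Depth differed in the same direction. Pull-down tags that entered the calling numbered 459332, 1097292 and 864206 for controls 1 to 3 and 1235247, 2508102 and 1336328 for KO 1 to 3, so each KO pull-down was deeper than any control. The deepest library, KO 2, had the fewest histone genes of the KO group and the most called genes of all 6 (3262). Control 1 stands apart: it was called with all duplicate tags kept, and the median pileup of its peaks was 4 tags, against 17 to 19 in the other lists. Without control 1 and KO 2, the means of the remaining libraries differed by 12 histone genes in place of 10.3, and by 0.532 in place of 0.421 percentage points of called genes. Both remaining KO pull-downs were still deeper than both remaining controls. Tag size was 110, 62 and 79 bp in controls 1 to 3 and 86, 52 and 70 bp in KO 1 to 3. Input tags used numbered 6300237, 4274420 and 5112099 for the controls and 3722752, 5209728 and 4039347 for KO. The part of depth, tag size or input in the counts was not tested.

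By direction of call, 20 of the 25 called histone genes (80%) had peaks in KO libraries alone, against 32.3% of the 5767 protein-coding genes with a peak. Without KO 1 the count in KO libraries alone was 13. Among genes under 5 kb the share was 18 of 23 (78.3%), against 39.3% of 460. Peaks in control libraries alone were found for 1 histone gene (4%), against 21.5% of genes. That gene was H3c15, called in control 2, where its near copy H3c14 was also called, so the call is uncertain. H3c13 was the 1 histone gene called in all 6 libraries (4%, against 8.74%), and H2aj the 1 called in all 3 KO and no control library (4%, against 1.73%). Each of these 4% shares rests on 1 gene.

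Most of these calls were made in few libraries: 12 histone genes were called in 1 library, 9 in 2, 1 in 3, 2 in 5 and 1 in 6. KO 1 and KO 3 shared 9 histone genes, which is 52.9% of those of KO 1 and 60% of those of KO 3. Over all called genes those 2 libraries shared 58.4% and 69%. KO 1 and KO 2 shared 5 histone genes, 29.4% of KO 1 and 62.5% of KO 2, against 63.8% and 47.7% over all called genes. KO 2 and KO 3 shared 6, 75% of KO 2 and 40% of KO 3, against 40.7% and 64.4%.

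No single histone gene passed a test of the call between genotypes. Fisher's exact test, two-sided, was run over the 6 libraries for each of the 5263 protein-coding genes called in 1 to 5 of them, 24 histone genes included. With 3 libraries against 3 its smallest possible p is 0.1, and 147 genes reached it, H2aj among them. After Benjamini-Hochberg adjustment of the exact test, 0 genes passed 0.05 (smallest adjusted p = 1), and 0 passed it before adjustment.

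**Figure D2:**
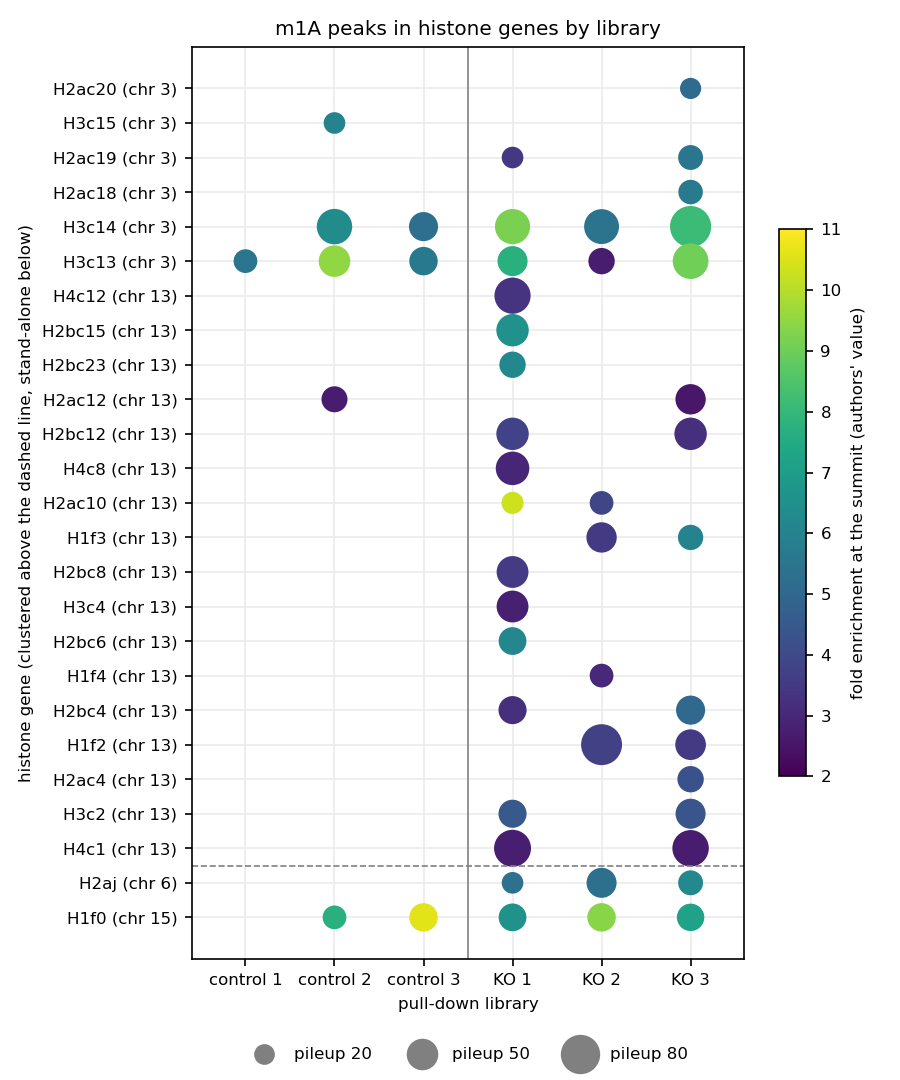
The 25 histone genes with a peak (rows) in the 6 pull-down libraries (columns): the area of a point grows with the pileup at the summit and its colour gives the fold enrichment, both the authors' values. H3c13, H3c14 and H1f0 have points on both sides of the vertical line, while most chromosome 13 genes have points on the KO side, chiefly under KO 1 and KO 3.

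Peaks stood in 4 of 10 H1, 7 of 44 H2A and 6 of 19 H2B genes. They stood in 5 of 16 H3 and 3 of 13 H4 genes, beside 26.3% of all protein-coding genes. Of these, 3 H1, 6 H2A, 6 H2B, 2 H3 and 3 H4 genes were called in KO libraries alone. Over all protein-coding genes with a peak that share was 32.3%. The families were not tested between genotypes. Linker histones, by library, numbered 0, 1 and 1 called genes in the controls and 1, 4 and 3 in the KO libraries. H1f0 encodes the replacement H1 that accumulates in differentiated, non-dividing cells, and it was the H1 gene called in both genotypes. Its fold enrichment, the authors' ratio of pull-down coverage at the summit to the local background, was 7.70 in control 2, 10.6 in control 3, and 6.52, 9.41 and 7.17 in KO 1, 2 and 3. The pileups, in the same order, were 27, 40, 38, 40 and 37 tags, and control 1 had no peak there. Such values belong to a peak of 1 list and are not compared between libraries.

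The H1f0 gene (chr15:79028212-79030504, plus strand) had its summits 419 to 487 bases from the annotated start. Clustered H1 genes, which supply linker histone during replication, were called in KO libraries alone. H1f2 had a fold of 3.72 in KO 2 and 3.54 in KO 3, and its KO 2 pileup of 87 tags ranked at 97.0% of the KO 2 list. H1f3 had 3.48 in KO 2 and 6.04 in KO 3, and H1f4 had 3.05 in KO 2. The other 6 of the 10 H1 genes, among them the replacement H1f10 and the germline H1f7 and H1f8, had no peak in any list.

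H2A genes were called 0, 1 and 0 times in the controls and 3, 2 and 6 times in the KO libraries. H2aj, the stand-alone gene of the variant H2A.J, had a fold of 5.33, 5.29 and 6.24 in KO 1, 2 and 3, with pileups of 22, 45 and 30 tags. Its summits lay 229 to 273 bases into the gene (chr6:136808248-136810074, plus strand), within 44 bases of each other. Peaks of the clustered H2ac12 were low in fold in both genotypes, at 2.71 in control 2 and 2.54 in KO 3.

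The remaining called H2A genes were clustered and called in KO libraries alone. H2ac10 had a fold of 10.3 in KO 1, at rank 81.9% of that list, and 3.86 in KO 2. H2ac19 had 3.46 in KO 1 and 5.50 in KO 3, and its near copy H2ac18 had 5.66 in KO 3. H2ac4 and H2ac20 had 4.23 and 5.11 in KO 3. The variants H2az1 and H2az2, which mark promoters, and H2ax, which is phosphorylated at DNA breaks, had no peak in any library, as was so for 37 of the 44 H2A genes.

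H2B genes were called in KO 1 (6 genes) and KO 3 (2 genes) and in none of the other 4 libraries. H2bc12, whose upstream stretch is shown above with its octamer, had a fold of 3.78 in KO 1 and 3.26 in KO 3, with a pileup of 53 tags in each. H2bc4 had 3.26 and 4.99 in the same libraries. In KO 1 alone, H2bc15, H2bc23 and H2bc6 had folds of 6.51, 6.2 and 6.18, and H2bc8 had 3.56. RefSeq gives H2bc6 a span of 37455 bases, far longer than its short coding part, and the KO 1 summit lay 224 bases past its annotated internal start.

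H3 genes held the peaks most widely shared between genotypes, with 1, 3 and 2 called genes in the controls and 4, 2 and 3 in the KO libraries. H3c13 (chr3:96268654-96269155, plus strand) was called in every list. Its fold was 5.51, 9.51 and 5.65 in controls 1 to 3 and 7.70, 2.68 and 9.06 in KO 1 to 3, with pileups of 27, 50, 40, 45, 34 and 65 tags. H3c14, in the same cluster, had 6.35 in control 2, 5.20 in control 3, and 9.18, 5.44 and 8.15 in KO 1 to 3, with pileups of 64, 42, 63, 62 and 88 tags. Its copy H3c15 was called in control 2 with a fold of 6.01 and in no other list.

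H3c2 and H3c4, on chromosome 13, were called in KO libraries alone. H3c2 had a fold of 4.46 in KO 1 and 4.34 in KO 3, and H3c4 had 2.8 in KO 1. The replacement H3.3 genes H3f3a and H3f3b, which supply H3 outside replication and in neurons, had no peak in any library, and neither had H3f3c.

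H4 genes were called 3 times in KO 1, once in KO 3 and in none of the other libraries. H4c1 had a fold of 2.74 in KO 1 and 2.67 in KO 3 over pileups of 70 and 68 tags. H4c12 and H4c8 had 3.36 and 2.96 in KO 1, over 67 and 57 tags. Within their own lists these 4 peaks ranked at 93.4% to 96.2% by pileup and at 0.740% to 2.70% by fold.

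Across all 49 histone peaks (9 in controls, 40 in KO), coverage was high and enrichment mostly low. The pileup exceeded the median of its own list in 49 of 49 peaks, while the fold lay below the list's median in 39. The median fold of histone peaks was 5.51, 6.35 and 5.65 in controls 1 to 3 and 4.46, 3.79 and 5.11 in KO 1 to 3. The medians of all peaks in those lists were 4.65, 7.16 and 7.18, and 7.16, 7.23 and 7.53. Control 1, with 1 histone peak, was the list where the histone value was the higher.

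The background implied by a pileup and its fold, in tags, follows if the caller's pseudocount of 1 tag was added to both. It lay above the list's median in 49 of 49 peaks. Being computed from the pileup and the fold, this background is not independent of the comparisons given above. Its median at histone peaks was 4.08, 4.36 and 6.25 tags in controls 1 to 3 and 7.30, 9.39 and 7.28 in KO 1 to 3, against 0.0756, 1.36, 1.26, 0.995, 1.12 and 1.32 over all peaks of those lists. The caller takes this background from the input library, as the higher of a local and a library-wide rate.

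**Figure D3:**
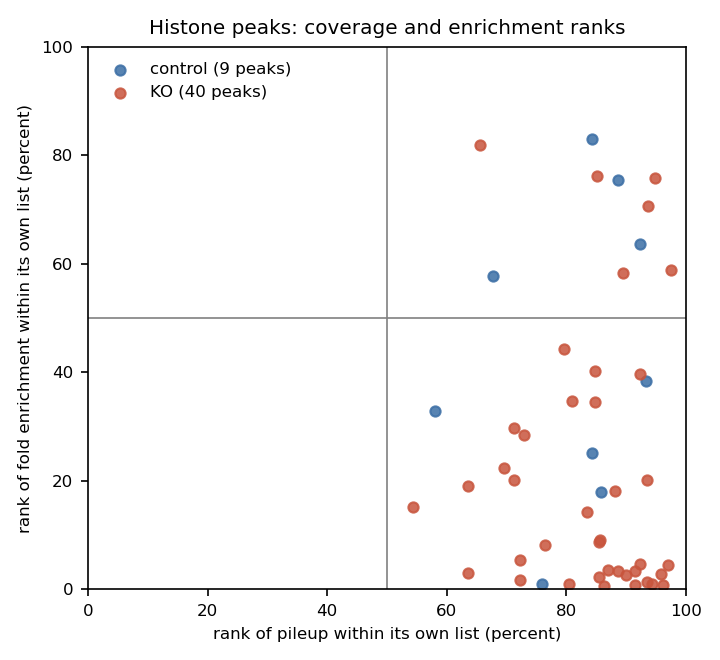
Each point is 1 of the 49 histone peaks: horizontal axis, percentile rank of its pileup in its own peak list; vertical axis, percentile rank of its fold enrichment in that list. No point lies left of the 50 percent line, and 39 lie under the horizontal one, with a group of KO peaks in the lower right corner.

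A minimum on the fold changed the comparison of genotypes. Of the 49 peaks 18 had a fold under 4: 17 of the 40 KO peaks and 1 of the 9 control peaks. The share of all peaks under that fold was not counted for these lists. With peaks of fold 4 or more, the number of histone genes called was 1, 4 and 3 in controls 1 to 3 and 9, 3 and 11 in KO 1 to 3. KO 2 then lay within the controls, and 12 of 16 called genes were in KO libraries alone. At this limit the share in KO libraries alone was not counted over all protein-coding genes.

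The clusters contributed unequally. For comparison, 26.3% of all protein-coding genes and 9.11% of those under 5 kb were called in at least 1 library. On chromosome 3 (chr3:96219885-96270192) 6 of 10 genes were called, 1, 3 and 2 of them in controls 1 to 3 and 3, 2 and 5 in KO 1 to 3. These are means of 2 ± 1 and 3.33 ± 1.53 (SD, n = 3), and the groups overlapped. On chromosome 13, where 51 clustered genes form 3 groups, 17 were called, 0, 1 and 0 in the controls and 12, 4 and 8 in KO. The means were 0.333 ± 0.577 and 8 ± 4 (SD, n = 3), and the groups did not overlap. How often sets of other genes separate in this way was not counted. Of the 17 genes, 16 (94.1%) were called in KO libraries alone, against 32.3% of all protein-coding genes with a peak. With peaks of fold 4 or more, the counts on chromosome 13 were 0 in each control and 5, 0 and 4 in KO 1 to 3, so KO 2 then matched the controls.

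Within chromosome 13, the group from H4c8 to H1f1 (chr13:23531044-23764412) had 12 of 29 genes called and no control peak. The group from H2ac12 to H2bc11 (chr13:22035122-22043658) had 2 of 5, and the group from H2bc13 to H2ac24 (chr13:21715711-21833475) 3 of 17. These counts stand beside 26.3% of all protein-coding genes and 9.11% of those under 5 kb. The clusters of chromosome 11 (H2bu2 to H3f4, 3 genes) and of chromosome X (H2al1a to H2al1j, 10 genes of a family expressed in testis) had none, and no other histone gene on X or Y had a peak. Of 44 peaks inside the clusters of all lists, 41 lay in a histone gene. The other 3 lay between genes at 1 spot of chromosome 13 (chr13:21766841-21767103) that holds no annotated gene, with folds of 4.64 in control 3, 3.61 in KO 1 and 8.95 in KO 3.

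**Figure D4:**
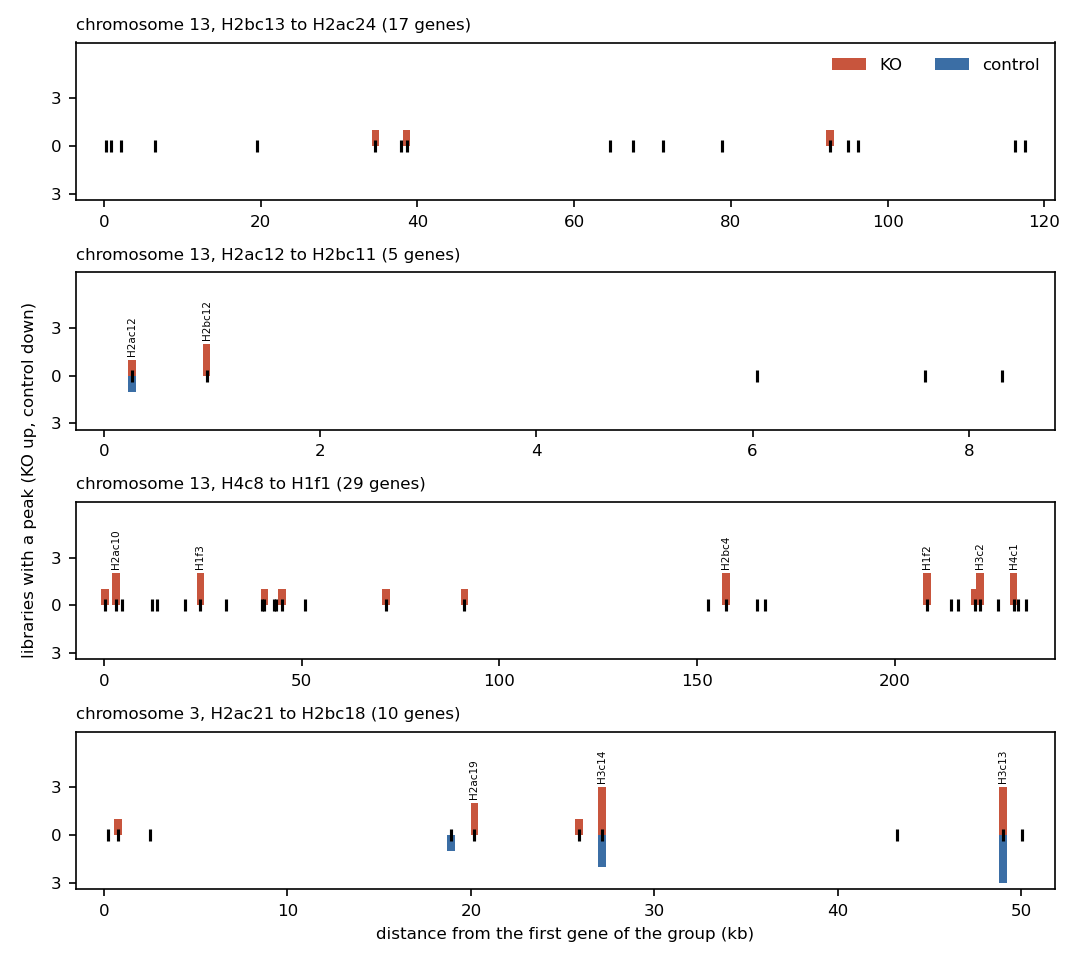
Histone genes (black ticks) of the 4 clusters with a peak, by distance in kb from the first gene of each; bars give the number of KO libraries (up) and control libraries (down) with a peak, and genes called in at least 2 libraries are named. Control bars stand at H2ac12, H3c15, H3c14 and H3c13, and the 29-gene cluster of chromosome 13 has KO bars alone.

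In 47 of 47 peaks with an annotated start, the summit lay 107 to 487 bases downstream of it (median 261). Most of these genes are little longer than 500 bases, and the distance cannot exceed the length. In longer called genes it was 419 to 487 bases in H1f0 (2293 bases), 229 to 273 in H2aj (1827), 191 in H2bc23 (3788) and 224 in H2bc6 (37455). Over all protein-coding genes under 5 kb, 558 of 1163 summits (48.0%) lay within 500 bases of the start, with a median of 557. The part of gene length was not tested. In the clustered genes under 1 kb, of 409 to 782 bases, the summit stood at 22.8% to 62.3% of the gene (median 44.6%, 37 peaks), and 23 of the 37 were in its first 50 percent. Peaks had a median length of 193 bases (163 to 494), a large part of such a gene, so codon or UTR positions cannot be read from them.

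Summits of a gene were close together across libraries. Those of H3c14 fell within 26 bases over 5 libraries, those of H1f2 within 1 base and those of H1f3 within 2 bases over 2 libraries each. H3c13 spread furthest, over 138 bases, with KO 1 apart from the other 5.

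**Figure D5:**
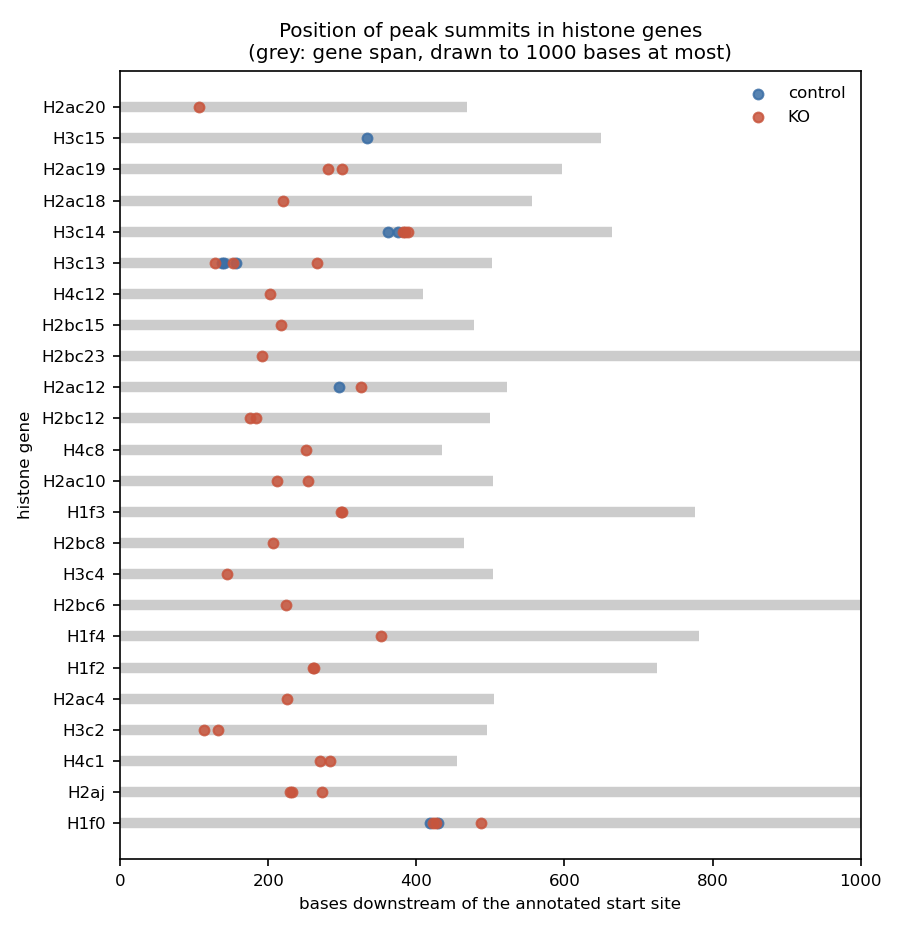
Summits of histone peaks (points, blue control and red KO) by bases downstream of the annotated start, with the gene span in grey, cut at the end of the axis for longer genes. All points lie between 107 and 487 bases, and repeated summits of H3c14, H1f0 and H1f2 fall close together.

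Of 21 genes of histone transcription and 3′ end processing, 6 were called (28.6%, near the 26.3% of all protein-coding genes). Of these 1 was called in KO libraries alone and 1 in controls alone (16.7% each, against 32.3% and 21.5% of all genes with a peak). Srrt, which links the cap-binding complex to RNA processing, had folds of 7.85 to 19.4 over all 6 libraries. Upf1, the helicase of histone mRNA decay, had 7.83 to 17.8 over all 6. Sympk, the scaffold of the cleavage complex, was called in 3 controls and in KO 1 (5.43 to 9.99), and Eri1, the nuclease that trims the histone stem-loop, in controls 2 and 3 and in KO 1 (5.99 to 7.16). Npat and Slbp had no peak.

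Of 39 histone chaperones and exchange factors, 23 had a peak (59%, against 26.3% of all protein-coding genes): 12 solely in KO libraries (52.2%, against 32.3%) and 4 solely in controls (17.4%, against 21.5%). By library they numbered 4, 10 and 5 in controls and 10, 15 and 5 in KO, so the groups overlapped. Gene length was not matched in these shares, and long genes have more room for a peak. Ncl (5.02 to 11.7) and the nucleosome assembly protein gene Nap1l5 (5.79 to 8.73) were called in all 6. Srcap, the ATPase that inserts H2A.Z, was called in 5 libraries (4.73 to 8.90). Ubn2, of the HIRA complex, and Rbbp7 were called in 4 each (8.10 to 11.9 and 5.31 to 15), and Set and Anp32e in 3 each. Of 4 histone genes outside the symbol rule, 1 was called: Macroh2a1, a histone variant gene, had a peak in all 6 libraries with folds of 8.84 to 13.6.

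Clustered histone genes are transcribed mainly in dividing cells. Markers of such cells were called in 1 of 18 cases (5.56%, against 26.3% of all protein-coding genes). This was Pcna in KO 1, with a fold of 6.77. A gene without a peak may still be expressed. Of 14 markers of medium spiny neurons, the main neurons of the striatum, 11 were called (78.6%, against 26.3%), 4 (Gng7, Ppp1r1b, Adcy5 and Pde10a) in all 6 lists, with 4, 9 and 9 per control and 4, 9 and 7 per KO library. Gene length was not matched in the marker lists either. Called markers per library numbered 1, 2 and 3 in controls and 1, 2 and 1 in KO for cortical neurons (5 genes), 0, 2 and 2 and 1, 2 and 2 for astrocytes (8), 0, 0 and 1 and 1, 3 and 0 for microglia (8), 1, 6 and 5 and 5, 5 and 4 for oligodendrocytes (8), and 0, 1 and 1 and 1, 2 and 0 for choroid plexus (4). In each of these lists the genotypes overlapped. In tissue RNA, fewer cells of a type and less RNA per cell cannot be told apart, and a call in a pull-down cannot be split here into more methylation and more transcript.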

How the data were processed

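The authors' 6 deposited peak lists, 1 per pull-down, were used; inputs entered through the calling. Per the submitters' processing notes, cutadapt 2.8, HISAT2 2.1.0, MACS2 2.2.6 and build GRCm38 were used. Per the file headers, each pull-down was called with its input as background, a q-value limit of 0.01 and an extension size of 150 bp; control 1 kept all duplicate tags, the others at most 1 per position. Per peak the deposited lists give a pileup (a coverage signal, in tags, at the summit), p-values and q-values as −log10, and a fold enrichment (a ratio to local background).

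Summits were placed in RefSeq gene spans with Python 3.11.15, pandas 2.3.3 and scipy 1.17.1, and figures drawn with matplotlib 3.10.9. The gene table gives no exons, and strand comes from the start-site windows. Peaks are a call at a given depth: a gene without one is not shown to lack m1A, and no counting interval can be given. Per-peak values were described, filtered at a fold limit, or ranked within their list; no fold or pileup was tested between libraries. The per-gene test is Fisher's exact test on calls, with Benjamini-Hochberg adjustment. Its code was run on simulated calls in which changed genes lay in all KO lists and no control list. That run checks the code alone, not the power of the test. Every called histone gene is named, with values of all its peaks where it was called in 3 or more libraries and its fold otherwise; other pathway genes are named where called in 3 or more. Pcna, Npat, Slbp and the uncalled variants were named after their values were seen. The histone genes, lists and tests were chosen with earlier results of these data known. Alternatives were stricter q and fold limits, any overlap, wider spans, single-gene summits, lists of equal length, other cluster rules, and leaving out libraries. The groups share replicate numbers, but deviations of same-numbered libraries correlated at −0.0338, −0.0476 and 0.0346, so the numbers were not taken as pairs.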

Additional observations from a re-analysis of the deposited data

How the results depend on the processing

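Under the alternatives 95 values stayed within 1.5 times the main count or 1 SD and 14 moved further, with no reversal; the cause was not tested. With a fold of at least 4, called histone genes fell from 25 to 16, clustered ones from 23 to 14, those in KO alone from 20 to 12, and the genotype difference from 10.3 to 5 genes per library and from 0.421 to 0.211 percentage points. At that limit, at −log10 q of at least 5 and in lists cut to the 3004 strongest peaks, 0 histone genes were called in all 6 libraries. With equal lists KO 2 and control 2 tied at 4 histone genes, while the percent still separated the genotypes. Clusters of 2 or more placed H2aj with H4f16 and left 1 called stand-alone gene, H1f0. Without control 1 and KO 2, 3 genes were called in all remaining libraries. Leaving out 1 library at a time, histone genes in KO alone ranged from 13 (without KO 1) to 21, in controls alone from 0 (without control 2) to 2 (without KO 3), and in all libraries from 1 to 3 (without control 1). The genotype difference then ranged from 8.5 to 13 genes and from 0.336 to 0.577 percentage points. Blocked on the replicate number (replicate block), 0 genes passed the exact test, with a smallest p of 0.25 against 0.1 without the block; same-numbered libraries share only a number. Presence or absence of a peak is limited by depth, which was lowest in control 1.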
